A study of Mus musculus with 49 samples.

Results

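Transcripts of the enzymes that make, read and break down cyclic AMP (cAMP) were followed in 3 hippocampal subfields of mice with and without mutant human tau. The genes were all those whose platform symbol began with Adcy or Akap or Pde and a digit, or with Prkar, or was Prkaca or Prkacb, taken from probe sets with a single symbol. This rule used no measured value, but it was set with earlier results of these data known. It gave 40 of 11807 named genes: 7 adenylyl cyclases, 5 subunits of protein kinase A (PKA), 10 A-kinase anchoring proteins (AKAPs) and 18 genes with a Pde symbol (PDEs below), most of them cyclic nucleotide phosphodiesterases or their subunits, though Pde6d encodes a prenyl-binding protein and Pde12 an enzyme for other substrates. They had 63 of 22626 tested probe sets. Each gene was read by its brightest probe set over all 49 arrays, and 17 of the genes had other probe sets as well.

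Adenylyl cyclases sit in the plasma membrane and turn ATP into cAMP when G proteins, and for some isoforms calcium and calmodulin, act on them. cAMP binds the regulatory subunits of PKA and frees its catalytic subunits, AKAPs hold PKA near its substrates, and PDEs end the signal by hydrolysing cAMP, cGMP or both. In hippocampal pyramidal neurons and granule cells the pathway is known for its part in synaptic plasticity and in the activation of transcription through CREB, a factor that binds the cAMP response element.

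The cell layers of CA1, CA3 and the dentate gyrus (DG) had been cut out by laser capture from frozen brains of female mice aged 6.1 months, and each sample was hybridized to 1 Affymetrix array. DN (double-negative) mice had none of the transgenes. In tTA mice the tetracycline-controlled transactivator was driven by the CaMKIIα promoter, which is active in forebrain excitatory neurons, and rTg4510 mice had tTA plus a responder transgene that it switches on and that encodes mutant human tau. There were 6 DN, 5 tTA and 5 rTg4510 mice for CA1. For CA3 the numbers were 5, 5 and 6, and for DG they were 6, 5 and 6. The study took tTA mice as the key control, since rTg4510 mice also express tTA. All groups came from crosses of FVB/N tau responder breeders with tTA breeders of another inbred strain. The comparison of rTg4510 with tTA mice holds the tau protein and the insertion of its transgene together. The DN mice had higher numbers (mouse4797 to mouse4886) than the tTA (mouse4570 to mouse4637) and rTg4510 mice (mouse4535 to mouse4666), and no hybridization batch is given in the sources used here.

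Values are log2 expression, so that a difference of 1 is a doubling, and spreads are SD over mice. A gene is called when the adjusted p for its probe set is below 0.05 by limma, with Benjamini-Hochberg adjustment over all 22626 probe sets. Levels of different genes come from different probes and are not compared. A gene is dim in a group where its mean is below 5.039, the median over all probe sets, and RMA understates the differences of such genes. Of the 40 genes, 25 had a mean over all arrays above that median and 15 below it.

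The captured layers were checked against neuronal markers. The mean log2 level of 4 CA1 pyramidal markers in DN mice ran from 9.12 to 9.41 in CA1 against 5.41 to 5.79 in CA3, that of 4 CA3 pyramidal markers from 7.99 to 8.35 in CA3 against 5.64 to 6.37 in CA1, and that of 7 dentate granule markers from 7.48 to 7.93 in DG against 4.80 to 5.98 in CA1. Transcripts of other cells were present too, with the mean of 9 astrocyte markers between 7.62 and 8.46 in the DG of DN mice. In captured tissue, fewer cells of a type and less RNA per cell cannot be told apart. Array quality also differed by genotype: the log2 difference between the 3' and 5' control probe sets of Actb averaged −0.37, −0.45 and −0.30 in CA1, CA3 and DG of DN mice, −0.70, −0.64 and −0.61 in tTA mice and −0.48, −0.63 and −0.52 in rTg4510 mice.

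Upstream sequence was available for 30 of the 40 genes, as 65 windows of 250 bases before annotated starts (RefSeq, GRCm38.p6). The windows are shown here because CREB binds TGACGTCA. TGACGTCA was in 1.54% of the members' windows and in 1.55% of all 32851 windows. Its 5-base core, TGACG or CGTCA (the same motif on the other strand, and part of every full match), was in 18.5% of the members' windows and 17.8% of all windows. Counted by gene, at least 1 window held the core in 10 of the 30 genes (33.3%) and in 19.8% of all genes, with no account taken of how many windows a gene has. These matches describe letters only, and probe sets could not be assigned to a start where a gene has several. Capitals mark the motif, and each sequence is written 5′ to 3′ on the strand of the gene. The full motif lay upstream of 1 start of Prkar1a, the regulatory subunit with the brightest probe set of the PKA genes (chr11:109650889-109650918, plus strand). Cores lay upstream of an annotated start of Prkacb, a catalytic subunit (chr3:146813031-146813060, minus strand), of Pde4b, a cAMP-specific PDE (chr4:102421509-102421538, plus strand), and of Prkar1b, a regulatory subunit enriched in brain (chr5:139150033-139150062, minus strand). The starts concerned of Prkar1a, Pde4b and Prkar1b lie inside the annotated genes.
Prkar1a: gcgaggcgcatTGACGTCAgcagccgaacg
Prkacb: ggggcttgaccgCGTCActtccggcgcgcc
Pde4b: gatttggctgcaCGTCAattttctcatctg
Prkar1b: tagagggcggagTGACGggcaggaggacga

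Of the cyclases called in a genotype comparison, Adcy9 and Adcy2 had 1 window each and Adcy8 had none. That of Adcy9 (chr16:4420499-4420748, minus strand) held a core whose first base was 24 bases before its start, and that of Adcy2 (chr13:68999542-68999791, minus strand) held none. The annotated Adcy9 gene reaches to chr16:4437236, so this start lies inside the gene, and the sequence before its outer 5′ end was not searched. Both windows are shown whole, and a link of the core to the genotype differences was not tested.
Adcy9: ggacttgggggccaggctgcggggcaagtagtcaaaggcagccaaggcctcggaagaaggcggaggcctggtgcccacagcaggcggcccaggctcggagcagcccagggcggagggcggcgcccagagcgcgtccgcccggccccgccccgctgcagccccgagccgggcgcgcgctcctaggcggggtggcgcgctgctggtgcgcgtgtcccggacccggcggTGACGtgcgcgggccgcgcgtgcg
Adcy2: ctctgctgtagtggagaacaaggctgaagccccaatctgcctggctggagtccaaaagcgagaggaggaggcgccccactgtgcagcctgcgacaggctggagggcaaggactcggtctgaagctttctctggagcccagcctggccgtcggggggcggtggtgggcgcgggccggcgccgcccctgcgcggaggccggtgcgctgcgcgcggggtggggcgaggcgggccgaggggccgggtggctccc

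Several PDE genes differed between the subfields of DN mice. Pde1a, a calcium- and calmodulin-dependent PDE, was 10.16-fold higher in CA1 and 6.32-fold higher in CA3 than in DG. Pde1b, of the same family, ran the other way and was highest in DG, and Pde7b, a cAMP-specific PDE, was 3.798-fold lower in CA1 and 3.997-fold lower in CA3 than in DG. Of the 40 genes, 8 were called between CA1 and CA3 (6 higher and 2 lower in CA1), 8 between CA1 and DG (5 higher and 3 lower in CA1) and 9 between CA3 and DG (3 higher and 6 lower in CA3). Among all named genes, 13.8% (6.73% higher and 7.08% lower), 18.4% (9.44% and 8.96%) and 22.3% (11.6% and 10.7%) were called. The counts of 8, 8 and 9 of 40 are near this background, and the text below is about the individual genes. Differences between subfields come from the model with the mouse as a block and can depart slightly from the difference of the means.

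Log2 levels of Pde1a in DN mice ran from 10.12 to 10.43 in CA1 (median 10.26, n = 6), were 9.71, 9.49, 9.69, 9.57 and 9.47 in CA3, and ran from 6.56 to 7.46 in DG (median 6.89, n = 6). The 3 subfields did not overlap. The difference was 3.34 (SE 0.14, adjusted p = 3.4e-23) between CA1 and DG, 2.66 (SE 0.14, adjusted p = 2.9e-19) between CA3 and DG and 0.69 (SE 0.14, adjusted p = 0.00036) between CA1 and CA3. Pde2a, a cGMP-stimulated PDE, had the same order. It ran from 7.96 to 8.33 in CA1 (median 8.17, n = 6), was 7.56, 7.36, 7.66, 7.53 and 7.04 in CA3, and ran from 6.49 to 6.93 in DG (median 6.72, n = 6), again without overlap. Its differences were 1.46 between CA1 and DG (SE 0.16, adjusted p = 5.3e-10), 0.73 between CA1 and CA3 (SE 0.17, adjusted p = 0.0011) and 0.72 between CA3 and DG (SE 0.17, adjusted p = 0.00079).

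Pde1b was 5.12, 5.21, 5.03, 5.41 and 5.86 in CA3, between 6.39 and 6.77 in CA1 (median 6.47, n = 6) and between 7.49 and 7.95 in DG (median 7.75, n = 6). The ranges did not overlap, and DG exceeded CA3 by 2.39 (SE 0.16, adjusted p = 2.8e-16) and CA1 by 1.23 (SE 0.15, adjusted p = 1.5e-08). Pde7b was between 5.35 and 6.59 in DG (median 6.02, n = 6), and its highest value was 4.49 in CA1 and 4.70 in CA3, so DG stood apart while both pyramidal layers were dim. The difference from DG was −1.93 in CA1 (SE 0.25, adjusted p = 6.7e-08) and −1.999 in CA3 (SE 0.27, adjusted p = 7.9e-08). Pde6c, the cone photoreceptor PDE, was dim throughout, at 3.33 ± 0.17 in CA1 and 3.73 ± 0.19 in CA3 of DN mice, and was called lower in CA1 (difference −0.40, SE 0.10, adjusted p = 0.0034). That call was lost without DN mouse4825 (adjusted p = 0.094).

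**Figure D1:**
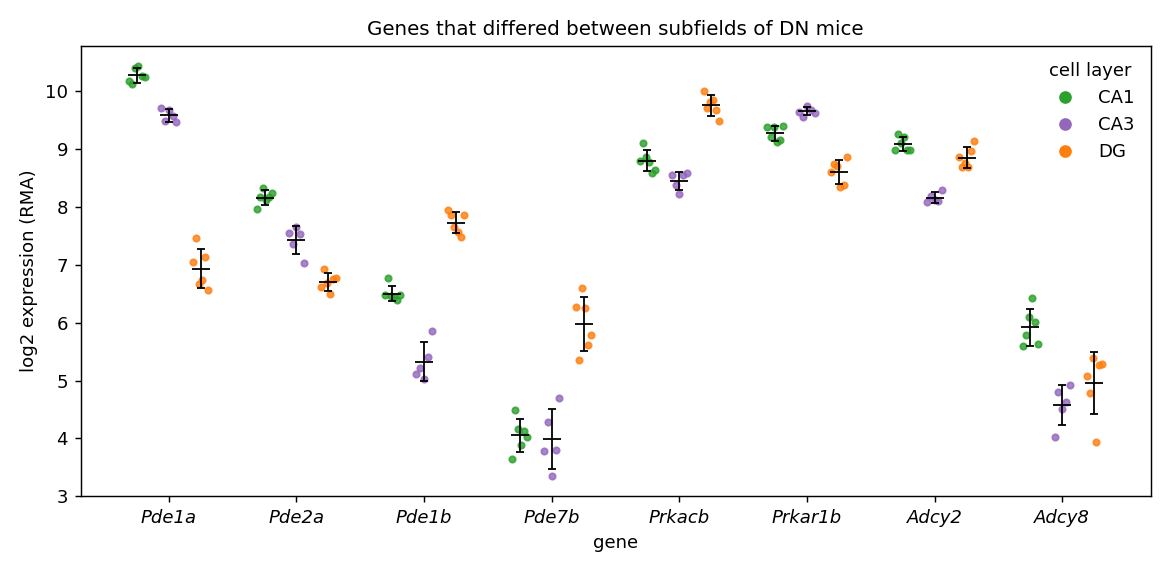
Log2 expression (y axis, RMA) of 8 genes in the cell layers of DN mice, with a point for each mouse, the mean as a horizontal line and the SD as a bar. Pde1a and Pde2a fall from CA1 to CA3 to DG, whereas Pde1b, Pde7b and Prkacb are highest in DG.

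Among PKA genes, the subunits differed between pyramidal and granule cell layers in opposite directions. Prkacb ran from 9.48 to 10.01 in DG (median 9.77, n = 6), above every CA1 value (8.59 to 9.11, median 8.79, n = 6) and every CA3 value (8.56, 8.38, 8.22, 8.55 and 8.58). It was lower than in DG by 0.96 on the log2 scale in CA1 (difference −0.96, SE 0.11, adjusted p = 5.2e-09) and by more in CA3 (difference −1.30, SE 0.12, adjusted p = 5.6e-12). Prkar1b was 9.64, 9.56, 9.75, 9.68 and 9.63 in CA3, between 9.12 and 9.40 in CA1 (median 9.30, n = 6) and between 8.34 and 8.86 in DG (median 8.65, n = 6), with no overlap. CA3 exceeded DG by 1.05 (SE 0.11, adjusted p = 4.4e-10) and CA1 exceeded DG by 0.67 (SE 0.11, adjusted p = 4.2e-06), while the difference of −0.38 between CA1 and CA3 (SE 0.11, adjusted p = 0.018) was not called without DN mouse4866 (adjusted p = 0.11) or mouse4883 (adjusted p = 0.085). The second probe set of Prkar1b was called between CA3 and DG too (0.88, adjusted p = 0.0041), and not between CA1 and DG (0.59, adjusted p = 0.058) or CA1 and CA3 (−0.28, adjusted p = 0.56). Prkaca, the other catalytic subunit, and Prkar1a and Prkar2a were not called between any of the subfields. Their means in CA1, CA3 and DG of DN mice were 8.53, 8.70 and 8.54 for Prkaca, 11.91, 11.83 and 11.82 for Prkar1a, and 5.01, 5.18 and 4.86 for Prkar2a.

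Of the cyclases, Adcy2 was lowest in CA3. It was 8.09, 8.195, 8.13, 8.11 and 8.30 there, between 8.99 and 9.26 in CA1 (median 9.05, n = 6) and between 8.69 and 9.15 in DG (median 8.81, n = 6), so that CA3 lay below both. CA1 exceeded CA3 by 0.93 (SE 0.11, adjusted p = 1.3e-08), and CA3 was lower than DG (difference −0.69, SE 0.11, adjusted p = 4.6e-06). Adcy8, a calcium-stimulated cyclase, was highest in CA1, at 5.92 ± 0.32 (n = 6) against 4.58 ± 0.35 in CA3 (n = 5) and 4.96 ± 0.54 in DG (n = 6). Its differences were 1.35 between CA1 and CA3 (SE 0.28, adjusted p = 0.00034) and 0.96 between CA1 and DG (SE 0.27, adjusted p = 0.0066), and the second was lost without DN mouse4866 (adjusted p = 0.12). Adcy9, a widely expressed cyclase that calmodulin does not stimulate, was higher in CA1 than in DG (8.12 ± 0.23 against 7.26 ± 0.25, n = 6 each, difference 0.86, SE 0.20, adjusted p = 0.0012). Another of its probe sets was called between CA1 and CA3 (0.52, adjusted p = 0.0098), where the brightest one was not (0.51, adjusted p = 0.12). Adcy6, which calcium inhibits, was 4.70 ± 0.19 in CA3 (n = 5) and 5.13 ± 0.20 in DG (n = 6), a difference of −0.42 (SE 0.15, adjusted p = 0.038) that was lost without DN mouse4797, mouse4806, mouse4883 or mouse4886 (adjusted p from 0.052 to 0.20).

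Akap9, a large scaffold of the centrosome and Golgi, was the only AKAP called between subfields in this model. It was 7.01 ± 0.24 in CA1, 6.70 ± 0.16 in CA3 and 7.07 ± 0.13 in DG of DN mice. The difference between CA3 and DG (−0.37, SE 0.10, adjusted p = 0.0069) was lost without DN mouse4883 (adjusted p = 0.078), and that between CA1 and CA3 (0.30, SE 0.10, adjusted p = 0.046) was lost without any of DN mice mouse4806, mouse4825, mouse4866, mouse4883 and mouse4886 (adjusted p from 0.051 to 0.35).

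The comparison of rTg4510 with tTA mice asks what mutant tau adds to tTA. In CA1, 4 of the 40 genes were called, all lower in rTg4510 mice: the cyclase Adcy2 (1.46-fold), the PDEs Pde2a (1.72-fold) and Pde1a (1.44-fold), and the PKA regulatory subunit Prkar1b (1.35-fold). Of all named genes 11.6% were called, 6.23% higher and 5.4% lower, so 4 of 40 is near the background. The median difference of the 40 genes was −0.08, against −0.04 for all named genes, and 24 of the 40 were negative. By family, 1 of 7 cyclases, 1 of 5 PKA subunits, 0 of 10 AKAPs and 2 of 18 PDEs were called, and 13 of the 40 had an unadjusted p below 0.05 (0 AKAPs were called by the least significant difference test on log2 values either, and 3 AKAPs had an unadjusted p below 0.05). Shares of all named genes at an unadjusted p below 0.05 are not given, so counts at that cut, here and below, are not set against a background.

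Adcy2 in CA1 was 8.32, 8.29, 7.94, 7.84 and 8.32 in rTg4510 mice and 8.35, 8.58, 8.78, 9.01 and 8.73 in tTA mice, and DN mice ran from 8.99 to 9.26 (median 9.05, n = 6). Every rTg4510 value was below every tTA value, and Adcy2 was the only 1 of the 40 genes without overlap, against 7.04% of all named genes. rTg4510 minus tTA was −0.55 (SE 0.13, adjusted p = 0.0109) and stayed called without any 1 of the 10 mice (adjusted p from 0.0047 to 0.030). It was not called when the model held only the 2 genotypes (adjusted p = 0.058).

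Pde2a in CA1 was 7.26, 8.14, 7.33, 6.56 and 7.09 in rTg4510 mice and 7.61, 8.21, 8.03, 8.31 and 8.12 in tTA mice. In rTg4510 mice 4 of 5 values lay below the lowest tTA value, and mouse4549 lay among the tTA mice. The difference was −0.78 (SE 0.21, adjusted p = 0.025). Pde1a was 8.96, 9.83, 9.82, 9.17 and 9.37 in rTg4510 mice and 9.91, 10.18, 9.57, 10.17 and 9.96 in tTA mice, a difference of −0.53 (SE 0.16, adjusted p = 0.045), with rTg4510 mice mouse4549 and mouse4600 above the lowest tTA mouse. Prkar1b was 8.44, 8.83, 8.96, 9.25 and 8.92 in rTg4510 mice and 9.46, 9.42, 9.10, 9.30 and 9.28 in tTA mice, a difference of −0.43 (SE 0.12, adjusted p = 0.034), with rTg4510 mouse4653 inside the tTA range. Its other probe set differed by 0.14 in the opposite direction and was not called (adjusted p = 0.73).

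These 3 calls rested on few mice. The call of Pde2a was lost without tTA mouse4580 or mouse4626 or rTg4510 mouse4653 or mouse4666 (adjusted p from 0.056 to 0.063). That of Pde1a was lost without tTA mouse4570, mouse4580, mouse4626 or mouse4637 or rTg4510 mouse4535, mouse4653 or mouse4666 (adjusted p from 0.063 to 0.11), and that of Prkar1b without tTA mouse4570, mouse4580, mouse4626 or mouse4637 or rTg4510 mouse4535, mouse4549 or mouse4666 (adjusted p from 0.054 to 0.074). The count of called genes fell to 1 without tTA mouse4580 or rTg4510 mouse4666 and to 2 without tTA mouse4626 or rTg4510 mouse4653, and rose to 7 without rTg4510 mouse4549.

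**Figure D2:**
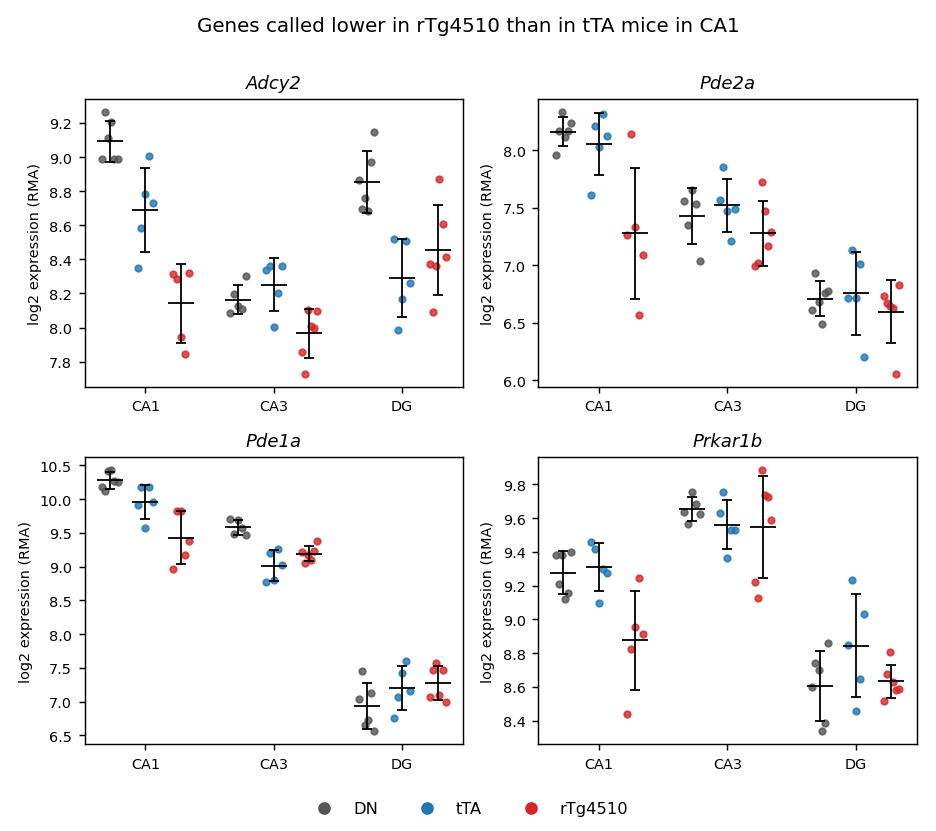
Log2 expression (y axis, RMA) of the 4 genes called between rTg4510 and tTA mice in CA1, in all 3 subfields (x axis) and genotypes (colours), with a point for each mouse, the mean as a horizontal line and the SD as a bar. In CA1 the rTg4510 points of Adcy2 lie below all tTA points, and those of the other 3 genes overlap with the tTA points.

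Several genes with an unadjusted p below 0.05 in CA1 were higher in rTg4510 mice without being called. Akap12, an AKAP that scaffolds PKA and PKC, had a mean of 7.12 against 6.50 in tTA mice (difference 0.62, SE 0.19, adjusted p = 0.052). Pde4b, a PDE specific for cAMP, had a mean of 8.42 against 8.02 (difference 0.40, SE 0.13, adjusted p = 0.058). Both were called in the model of all 49 arrays with the mouse as a block (adjusted p = 0.039 and 0.018), together with Akap2 (0.57, adjusted p = 0.036) and Pde9a (0.50, adjusted p = 0.028), which were higher, and Pde6g (−0.28, adjusted p = 0.030), which was lower. The last 3 are named after their values were seen. That model called 9 of the 40 genes, 4 higher and 5 lower. The share of all named genes that it called is not given here, and the 11.6% above is from the model of CA1 alone. The other PKA subunits were not called in CA1, with differences of 0.23 for Prkacb (mean 8.42 in rTg4510 and 8.18 in tTA mice), 0.004 for Prkaca (8.45 and 8.44), 0.03 for Prkar1a (11.88 and 11.84) and −0.36 for Prkar2a (4.398 and 4.755).

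Markers of other cells and of the pyramidal neurons themselves moved with these results in CA1. Of the measured markers, 4 of 4 for CA1 pyramidal neurons were lower in rTg4510 mice, and 9 of 12 for microglia, 7 of 9 for astrocytes, 4 of 8 for oligodendrocytes, 4 of 10 for endothelial and mural cells and 5 of 8 for interneurons were higher. The list mean of the CA1 pyramidal markers was 6.40 to 8.03 in rTg4510 mice against 8.45 to 9.43 in tTA mice, and that of the microglial markers was 6.59 to 7.53 against 5.53 to 5.91, with Itgam and Laptm5 still dim in rTg4510 mice. The part of these cells in the 4 calls was not tested. With the Actb 3' to 5' difference as a covariate, 1 of the 40 genes stayed called (Adcy2), and when only the 2 genotypes were fitted, 0 stayed called.

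In CA3 and DG, 0 of the 40 genes were called between rTg4510 and tTA mice by limma, and 0 by the least significant difference test on log2 or on anti-log values. Of all named genes, 1.16% were called in CA3 and 0.796% in DG. At an unadjusted p below 0.05 there were 5 genes in CA3 and 4 in DG. The 4 genes called in CA1 had differences in CA3 of −0.29 for Adcy2 (95% confidence interval −0.47 to −0.10, unadjusted p = 0.0050, adjusted p = 0.13 by limma), −0.24 for Pde2a (−0.55 to 0.07), 0.18 for Pde1a (−0.03 to 0.39) and −0.01 for Prkar1b (−0.28 to 0.25). In DG they were 0.16 for Adcy2 (−0.12 to 0.45), −0.16 for Pde2a (−0.49 to 0.16), 0.08 for Pde1a (−0.29 to 0.45) and −0.21 for Prkar1b (−0.48 to 0.06). Without rTg4510 mouse4549, Pde4b was called higher in DG (0.35, adjusted p = 0.024), where it had a mean of 8.97 in rTg4510 and 8.68 in tTA mice (difference 0.30, adjusted p = 0.084 with all mice). Without tTA mouse4570, Pde7a was called higher there (0.56, adjusted p = 0.048). Akap9 did not overlap between the genotypes in DG, from 6.77 to 7.08 in rTg4510 mice (median 6.82, n = 6) against 6.65, 6.61, 6.40, 6.76 and 6.57 in tTA mice, with a difference of 0.25 that was not called (SE 0.09, adjusted p = 0.16). It was the only 1 of the 40 genes of which this held in DG, against 1.57% of all named genes.

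Whether the rTg4510 minus tTA difference itself depended on the subfield was tested in the model of all 49 arrays. Between CA1 and DG 1 of the 40 genes was called, against 6.14% of all named genes. This was Adcy2, whose difference was more negative in CA1 by 0.70 (interaction −0.70, SE 0.16, adjusted p = 0.0055). It stayed called without any 1 mouse (adjusted p from 0.0011 to 0.038) and in all 6 other alternatives. Between CA1 and CA3 1 gene was called, against 4.31%: Pde1a (interaction −0.71, SE 0.21, adjusted p = 0.038), which was lost without tTA mouse4570, mouse4580, mouse4626 or mouse4637 or rTg4510 mouse4535, mouse4653 or mouse4666 (adjusted p from 0.056 to 0.13) and without the replicate block (adjusted p = 0.072). A second probe set of Adcy9 was called in the same comparison (−0.70, adjusted p = 0.047), while its brightest was not (−0.56, adjusted p = 0.35). Without rTg4510 mouse4549, 5 genes were called between CA1 and CA3 and 4 between CA1 and DG. Between CA3 and DG, 0 of the 40 genes were called (5 had an unadjusted p below 0.05), against 0.0169% of all named genes.

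The comparison of tTA with DN mice sets mice with the tTA transgene against mice with neither transgene, and the groups also differ in mouse numbers and in the Actb difference given above. It shares the tTA arrays with the comparison above, so values of the 2 are given side by side and no agreement between them is counted. It also shares the DN arrays with the comparison of rTg4510 with DN mice. A shift of the DN arrays would enter both, so a difference in both transgenic groups is not 2 independent results. In DG, 8 of the 40 genes were called, 2 higher and 6 lower in tTA mice, against 17.5% of all named genes (7.98% higher and 9.49% lower). In CA1 there were 7 (2 higher and 5 lower) against 16.5% (7.94% and 8.52%), and in CA3 3 (1 higher and 2 lower) against 9% (4.41% and 4.59%). All 3 counts are near the background. The median differences of the 40 genes were −0.04 in DG, −0.06 in CA1 and −0.03 in CA3, against 0.03, 0.06 and 0.04 for all named genes.

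Pde4b rose in the DG of tTA mice. Its level was 8.64, 8.54, 8.80, 8.68 and 8.71 in tTA mice, between 8.11 and 8.40 in DN mice (median 8.25, n = 6) and between 8.71 and 9.11 in rTg4510 mice (median 9.02, n = 6), so that both transgenic groups lay above every DN mouse. tTA exceeded DN mice by 0.43 (SE 0.08, adjusted p = 0.0017) and rTg4510 exceeded DN mice by 0.72 (SE 0.08, adjusted p = 1.3e-05), and both were called in every alternative and without any 1 mouse. The other probe set of Pde4b differed by 0.48 between tTA and DN mice and was not called (adjusted p = 0.11), nor was it in the 2 interactions below (adjusted p = 0.19 and 0.55). In CA1 the tTA mice did not exceed DN mice (8.02 ± 0.21 against 8.14 ± 0.16). The tTA minus DN difference was larger in DG than in CA1 by 0.55 (SE 0.15, adjusted p = 0.043) and larger than in CA3 by 0.58 (SE 0.15, adjusted p = 0.040). The first was lost without tTA mouse4592, mouse4626 or mouse4637 or any 1 of the 6 DN mice (adjusted p from 0.053 to 0.14). The second was lost without tTA mouse4580, mouse4592 or mouse4637 or DN mouse4797, mouse4806, mouse4866, mouse4883 or mouse4886 (adjusted p from 0.054 to 0.15). Neither was called without the replicate block (adjusted p = 0.088 and 0.086). Of all named genes, 1.84% and 1.43% were called in these 2 interactions.

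Pde7b and Pde1b were lower in the DG of both transgenic groups than of DN mice. Pde7b was 4.61, 5.68, 4.59, 4.82 and 4.34 in tTA mice, between 5.35 and 6.59 in DN mice (median 6.02, n = 6) and between 4.27 and 5.42 in rTg4510 mice (median 4.92, n = 6). Only tTA mouse4580 and the highest rTg4510 mouse reached the DN range, and the transgenic groups were dim. Relative to DN mice, Pde7b changed by −1.17 in tTA (SE 0.26, adjusted p = 0.0053) and by −1.11 in rTg4510 animals (SE 0.25, adjusted p = 0.0089), both kept in every alternative and without any 1 mouse. The second probe set of Pde7b was called lower in tTA mice (−0.50, adjusted p = 0.031) and not called in rTg4510 against DN mice (−0.29, adjusted p = 0.26). Pde1b was 7.18, 7.003, 6.99, 7.37 and 7.05 in tTA mice, below every DN mouse (7.49 to 7.95, median 7.75, n = 6), and ran from 6.76 to 7.65 in rTg4510 mice (median 7.22, n = 6). Relative to DN mice, Pde1b changed by −0.61 in tTA (SE 0.13, adjusted p = 0.0042) and by −0.51 in rTg4510 animals (SE 0.13, adjusted p = 0.017), and neither was called with the Actb covariate (adjusted p = 0.16 in both).

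Prkacb, Akap9 and Adcy2 also fell in the DG of tTA mice without overlapping DN mice. Prkacb was 9.34, 9.37, 9.22, 9.43 and 9.40 in tTA mice, between 9.48 and 10.01 in DN mice (median 9.77, n = 6) and between 8.77 and 9.40 in rTg4510 mice (median 9.19, n = 6). The difference from DN mice was −0.41 in tTA (SE 0.12, adjusted p = 0.021) and −0.60 in rTg4510 animals (SE 0.11, adjusted p = 0.0020). The call in tTA mice was lost without tTA mouse4592 (adjusted p = 0.056) or DN mouse4797 (adjusted p = 0.054), and that in rTg4510 mice was kept throughout. The other probe set of Prkacb was not called in either (−0.74 and −0.31, adjusted p = 0.070 and 0.52). Akap9 ran from 6.94 to 7.30 in DN mice (median 7.05, n = 6), and its difference of −0.47 (SE 0.09, adjusted p = 0.0013) was kept throughout. Adcy2 was 8.52, 7.98, 8.17, 8.51 and 8.26 in tTA mice, between 8.69 and 9.15 in DN mice and between 8.09 and 8.87 in rTg4510 mice (median 8.39, n = 6). The difference from DN mice was −0.57 in tTA (SE 0.13, adjusted p = 0.0077), which was lost with the Actb covariate (adjusted p = 0.27), and −0.40 in rTg4510 mice, which was not called (adjusted p = 0.060). The number of genes without overlap between tTA and DN mice in DG was 6 of 40, against 11.1% of all named genes. Between rTg4510 and DN mice in DG it was 2 of 40, against 6.12%.

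Adcy9 was lower in both transgenic groups in DG and CA1. In DG it was 7.10, 6.00, 6.94, 6.10 and 6.38 in tTA mice, between 6.86 and 7.57 in DN mice (median 7.30, n = 6) and between 5.93 and 6.89 in rTg4510 mice (median 6.20, n = 6). Of the tTA mice, mouse4570 and mouse4592 lay inside the DN range. The difference from DN mice was −0.76 in tTA (SE 0.21, adjusted p = 0.018), which was lost without tTA mouse4580 (adjusted p = 0.053), and −0.97 in rTg4510 animals (SE 0.20, adjusted p = 0.0050). Neither was called with the Actb covariate (adjusted p = 0.24 in tTA and 0.051 in rTg4510 mice). Of the other 2 probe sets of Adcy9, 1 was called in both (−0.74 and −0.66, adjusted p = 0.0052 and 0.013) and 1 in neither (−0.74 and −0.53, adjusted p = 0.052 and 0.19). In CA1 Adcy9 was 7.37, 7.46, 6.49, 7.64 and 7.59 in tTA mice and 6.31, 6.32, 7.60, 6.64 and 7.16 in rTg4510 mice, and every one of these was below the DN mice (7.88 to 8.45, median 8.07, n = 6). It differed from DN mice by −0.81 in tTA (SE 0.24, adjusted p = 0.031) and by −1.31 in rTg4510 animals (SE 0.24, adjusted p = 0.00080). The first was lost without tTA mouse4592 or DN mouse4806, mouse4866 or mouse4883 (adjusted p from 0.053 to 0.080) and with the Actb covariate (adjusted p = 0.37), and the second was kept throughout.

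**Figure D3:**
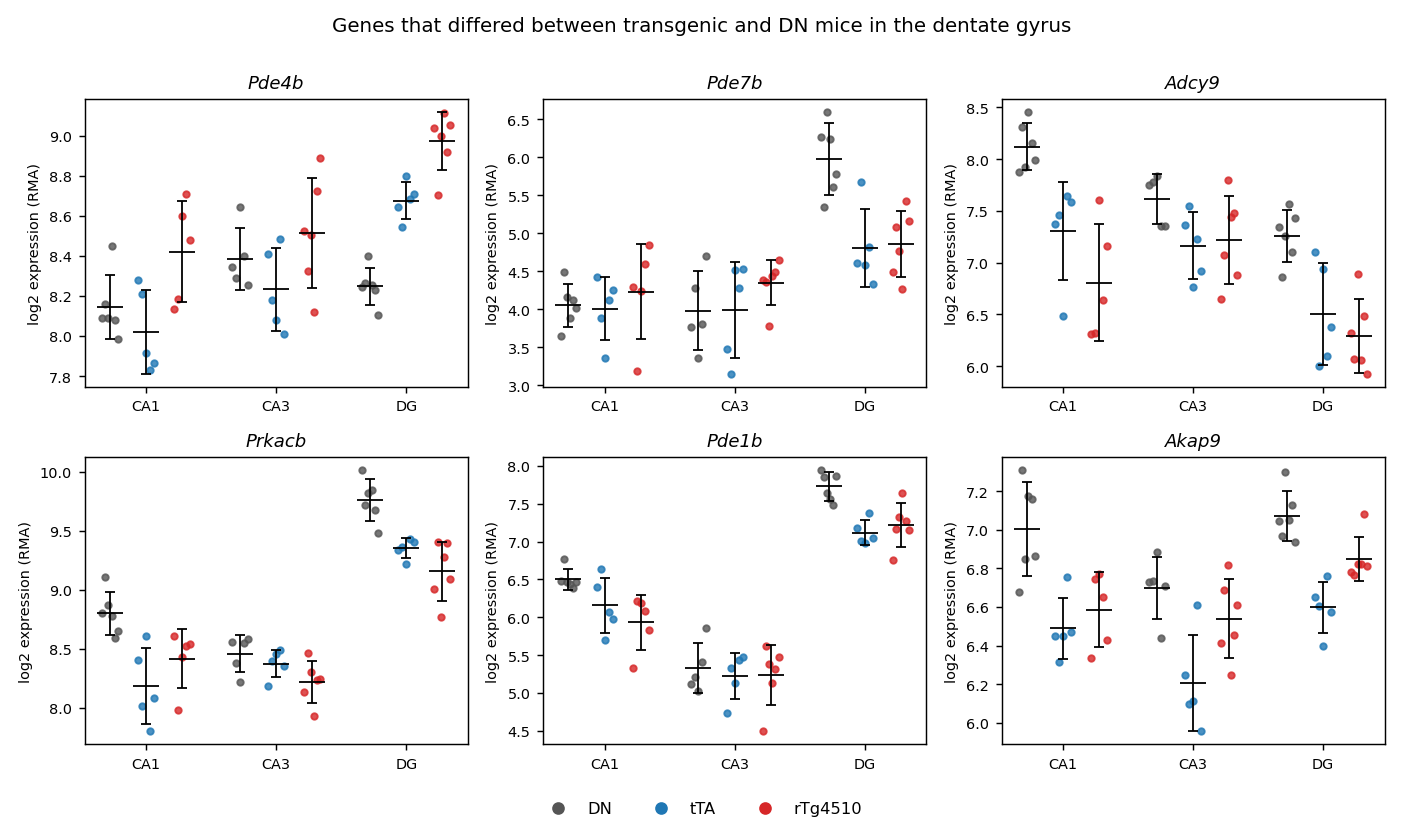
Log2 expression (y axis, RMA) of 6 genes by subfield (x axis) and genotype (colours), with a point for each mouse, the mean as a horizontal line and the SD as a bar. In DG, Pde4b is higher in both transgenic groups than in any DN mouse, and the means of the other 5 genes are lower in both groups than in DN mice.

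The remaining calls between tTA and DN mice were of Adcy2, Adcy8, Prkacb, Akap9, Akap4 and Pde6d in CA1, of Pde1a, Akap9 and Pde6d in CA3, and of Akap4 in DG. In CA1, Prkacb differed by −0.62 (8.18 ± 0.32 in tTA, 8.80 ± 0.18 in DN mice, SE 0.15, adjusted p = 0.0099) and Akap9 by −0.52 (6.49 ± 0.16 and 7.01 ± 0.24, SE 0.12, adjusted p = 0.010), and both were kept without any 1 mouse and lost with the Actb covariate (adjusted p = 0.14 and 0.21), as were the other 5 calls in CA1 (adjusted p from 0.16 to 0.38). Adcy2 in CA1 differed by −0.40 (SE 0.12, adjusted p = 0.034), lost without tTA mouse4570, mouse4580 or mouse4637 or DN mouse4806, mouse4825 or mouse4866 (adjusted p from 0.052 to 0.082). Adcy8 was 3.94, 5.08, 4.35, 5.94 and 4.88 in tTA mice against 5.59 to 6.43 in DN mice (median 5.89, n = 6), a difference of −1.08 (SE 0.35, adjusted p = 0.048) that was lost on leaving out any mouse but tTA mouse4626. Pde6d, a prenyl-binding protein named for its copurification with the photoreceptor PDE, was 8.24, 8.13, 8.33, 8.005 and 8.001 in tTA mice, all above the DN mice (7.46 to 7.84, median 7.71, n = 6). Its difference of 0.46 (SE 0.15, adjusted p = 0.044) was lost on leaving out any 1 of the 11 mice (adjusted p from 0.051 to 0.10). Of the 40 genes, 2 did not overlap between tTA and DN mice in CA1, against 12.1% of all named genes.

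In CA3, Pde1a was 8.77, 9.21, 8.81, 9.26 and 9.03 in tTA mice, 9.71, 9.49, 9.69, 9.57 and 9.47 in DN mice, and between 9.05 and 9.38 in rTg4510 mice (median 9.20, n = 6), so that neither transgenic group overlapped DN mice. The difference of −0.57 in tTA mice (SE 0.10, adjusted p = 0.0034) was kept in every alternative and without any 1 mouse. Of the 40 genes, 3 did not overlap between tTA and DN mice in CA3, against 10.3% of all named genes. Between rTg4510 and DN mice in CA3, 1 did not, against 4.66%. Akap9 differed by −0.49 in CA3 (SE 0.13, adjusted p = 0.026), lost without tTA mouse4592 or mouse4637 or DN mouse4797, mouse4825 or mouse4866 (adjusted p from 0.059 to 0.076) and with the Actb covariate (adjusted p = 0.12). Pde6d differed by 0.41 (SE 0.12, adjusted p = 0.038), lost without tTA mouse4570, mouse4592 or mouse4637 or DN mouse4797, mouse4825, mouse4866 or mouse4886 (adjusted p from 0.058 to 0.095), with the Actb covariate (adjusted p = 0.15) and with the replicate block of the 9-group model (adjusted p = 0.099). The brightest probe set of Pde7a, a cAMP-specific PDE, did not differ in CA3 (−0.01, adjusted p = 0.97), whereas 2 of its other 3 probe sets were called lower (−1.60 and −0.60, adjusted p = 0.00063 and 0.0087). These 2 probe sets were dim in both groups, with means of 3.34 and 3.75 in tTA and 4.94 and 4.34 in DN mice. A second probe set of Adcy9 was called lower in CA3 (−0.55, adjusted p = 0.025), unlike the brightest one (−0.45, adjusted p = 0.18). The second probe set of Pde7b was called higher in CA3 (0.44, adjusted p = 0.016) while its brightest differed by 0.01, and both were dim there. Akap4, an anchoring protein of the sperm tail, was dim everywhere (means from 2.96 to 3.28), and its calls of 0.25 in CA1 (adjusted p = 0.038) and 0.29 in DG (adjusted p = 0.036) were not found in its other 2 probe sets. They were lost without 8 and 7 of 11 mice in turn: in CA1 without tTA mouse4580, mouse4592 or mouse4626 or any DN mouse but mouse4883, and in DG without tTA mouse4570, mouse4592 or mouse4637 or DN mouse4797, mouse4825, mouse4866 or mouse4886 (adjusted p from 0.059 to 0.096 over both).

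The tTA minus DN difference also varied between DG and CA3 for 2 other genes. It was more positive in DG by 0.85 for Pde1a (SE 0.21, adjusted p = 0.020) and more negative in DG by 0.65 for Adcy2 (interaction −0.65, SE 0.16, adjusted p = 0.024). The first was lost without tTA mouse4592 or DN mouse4797, mouse4825, mouse4866 or mouse4886 (adjusted p from 0.056 to 0.085), and the second without tTA mouse4580 or mouse4637 or DN mouse4797, mouse4883 or mouse4886 (adjusted p from 0.058 to 0.12) and with the mouse as a fixed replicate block (adjusted p = 0.066). A second probe set of Pde7b was called too (−0.94, adjusted p = 0.0023), while its brightest was not (−1.19, adjusted p = 0.15).

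Other values moved with the DN comparisons. In the DG of tTA mice 8 of 12 microglial and 8 of 9 astrocyte markers were higher than in DN mice, and of 7 dentate granule markers 3 were lower and 1 higher. The list mean of the granule markers was 6.90 to 7.49 in tTA and 7.48 to 7.93 in DN mice, and that of the microglial markers was 6.10 to 6.73 against 4.88 to 5.39, with Itgam, Laptm5 and Ptprc dim in tTA mice. In CA1 3 of 12 microglial and 5 of 9 astrocyte markers were higher, and in CA3 9 of 12 and 7 of 9. The microglial list mean in CA1 was 5.53 to 5.91 in tTA against 5.06 to 5.47 in DN mice. That of the astrocyte markers there was 8.13 to 8.68 against 7.75 to 8.15. The part of these cells in the calls was not tested. With the Actb 3' to 5' difference as a covariate, the calls between tTA and DN mice went from 8 to 5 in DG (4 of them among the 8), from 7 to 0 in CA1 and from 3 to 1 in CA3.

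Against DN mice, rTg4510 mice had 11 of the 40 genes called in CA1 (2 higher and 9 lower), 1 in CA3 and 5 in DG (1 higher and 4 lower), against 24.7% (12.2% higher and 12.5% lower), 3.36% (2.14% and 1.22%) and 9.83% (4.59% and 5.24%) of all named genes. The 3 counts are near the background. In CA1 12 of 12 microglial, 9 of 9 astrocyte and 8 of 8 oligodendrocyte markers were higher and 4 of 4 CA1 pyramidal markers lower, and the microglial list mean was 5.06 to 5.47 in DN mice against the 6.59 to 7.53 given above. Microglial and astrocyte markers were higher in CA3 (9 of 12 and 5 of 9) and DG (7 of 12 and 8 of 9) too, and the part of these cells in the calls was not tested. The largest differences in CA1 were of Adcy9, given above, and of Pde10a, a PDE for cAMP and cGMP that is most abundant in striatum. Pde10a was 5.90, 5.00, 6.21, 5.79 and 5.56 in rTg4510 mice, below every DN mouse (6.34 to 7.41, median 7.08, n = 6), while tTA mice had 6.04, 7.06, 5.55, 6.29 and 6.64. rTg4510 minus DN was −1.30 (SE 0.26, adjusted p = 0.0014) and was kept throughout. Of its other 2 probe sets, 1 was called lower too (−0.95, adjusted p = 0.0036) and 1 differed by 0.01. Adcy2 (−0.95, SE 0.12, adjusted p = 3.9e-05), Pde1a (−0.85, SE 0.15, adjusted p = 0.00078) and Pde2a (−0.89, SE 0.20, adjusted p = 0.0041) were kept throughout as well, and Adcy2 and Pde1a did not overlap between the groups. Of the 40 genes 5 did not overlap, against 15.7% of all named genes.

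The other calls in CA1 were lost without 1 or more mice. Akap12 (0.62, adjusted p = 0.023) was lost without DN mouse4825 or rTg4510 mouse4535, mouse4653 or mouse4666, and Pde3a, a cAMP PDE inhibited by cGMP and dim here (0.54, adjusted p = 0.021), without rTg4510 mouse4535. The other 2 probe sets of Pde3a were not called, nor was the other probe set of Prkar1b (−0.19, adjusted p = 0.50). Akap9 (−0.42, adjusted p = 0.021) was lost without rTg4510 mouse4535 or mouse4666, Prkar1b (−0.40, adjusted p = 0.022) without rTg4510 mouse4535, Pde1b (−0.57, adjusted p = 0.022) without rTg4510 mouse4535 or mouse4666 or DN mouse4806, and Adcy8 (−1.13, adjusted p = 0.028) without rTg4510 mouse4549 or mouse4666 or DN mouse4825 or mouse4866. Adjusted p was between 0.051 and 0.083 in these fits. Akap9 was also lost when the arrays were quantile normalized again (adjusted p = 0.052) and Adcy8 with the Actb covariate (adjusted p = 0.057) and by the least significant difference test on log2 values (adjusted p = 0.055). Without rTg4510 mouse4535, 6 genes were called in all. In CA3 the call was of Pde1a (−0.39, SE 0.10, adjusted p = 0.043), whose ranges did not overlap but whose call was lost without rTg4510 mouse4535, mouse4549, mouse4600 or mouse4621 or DN mouse4797, mouse4825, mouse4866 or mouse4883 (adjusted p from 0.068 to 0.12), with the replicate block of the 9-group model (adjusted p = 0.14) and with the Actb covariate (adjusted p = 0.17). A second probe set of Pde7a, dim in both groups, was called in CA3 too (−0.84, adjusted p = 0.047), while its brightest was not (0.13, adjusted p = 0.70).

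**Figure D4:**
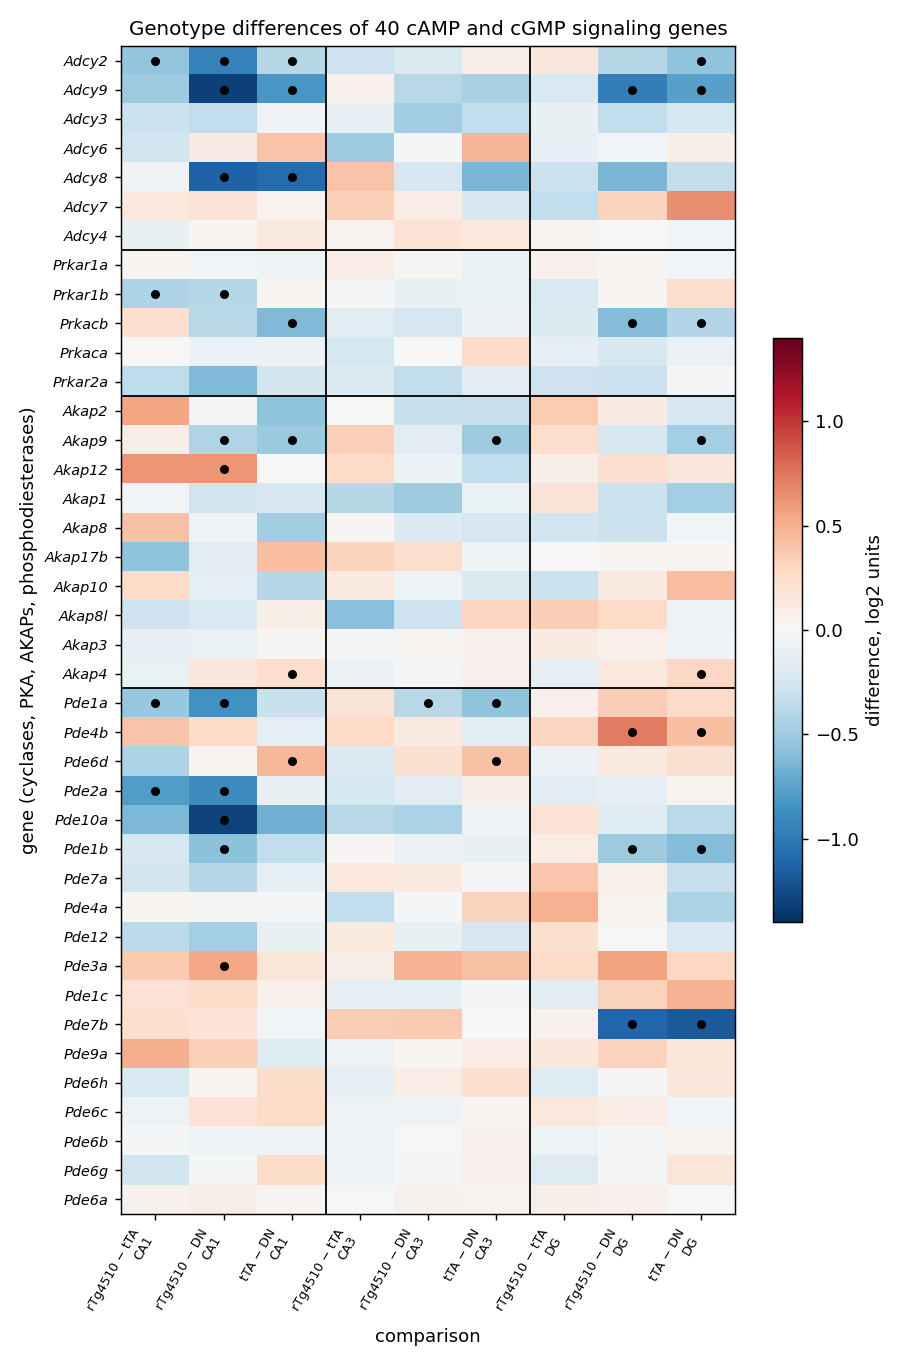
Difference in mean log2 expression (colour) of the 40 genes (rows, grouped as cyclases, PKA subunits, AKAPs and PDEs) in the 9 genotype comparisons (columns, by subfield), with a black dot where the adjusted p was below 0.05. Dots are densest in the comparisons with DN mice in CA1 and DG, and the rTg4510 minus tTA columns of CA3 and DG hold none.

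In all, 16 of the 40 genes were called in a genotype comparison or an interaction and 18 when the subfields of DN mice are included. The share of all named genes called in at least 1 of these comparisons is not given here, so neither count is set against a background. The 22 whose brightest probe set was called nowhere were 3 cyclases, 3 PKA subunits (Prkar1a, Prkaca and Prkar2a), 7 AKAPs and 9 PDEs, and 10 of the 22 had a mean below the median probe set. They include Pde7a, whose other probe sets were called in CA3 as given above. They also include Adcy3, whose other probe set was called higher in CA1 than in DG of DN mice (0.37, adjusted p = 0.019) and was dim in both. By the brightest probe sets, the largest genotype difference within a subfield among the 22 was 0.65, for Adcy7 between tTA and DN mice in DG. Prkar1a had group means between 11.73 and 11.91 in the 9 groups, Prkaca between 8.32 and 8.95, and Prkar2a between 4.398 and 5.179. Akap2, the AKAP with the brightest probe set, had group means between 6.43 and 7.05. The retinal PDE6 genes (Pde6a, Pde6b, Pde6c, Pde6g and Pde6h) had means over all arrays between 2.78 and 3.63.

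Genes that act with the 40 were counted from 3 lists. Of 27 measured cAMP partners (G proteins, receptors, PKA inhibitors, CREB and its coactivators), 2 were higher and 3 lower in CA1 of rTg4510 than of tTA mice, where 11.6% of all named genes were called. These were Prkx, a PKA-like catalytic kinase (0.64, adjusted p = 0.015), and Rapgef3, a cAMP-activated exchange factor (0.87, adjusted p = 0.032), and the phosphatase 1 inhibitors Ppp1r1a (−0.74, adjusted p = 0.00073) and Ppp1r1b (−1.25, adjusted p = 0.0099) and the PKA inhibitor Pkig (−0.39, adjusted p = 0.049). Of 18 measured CREB target genes, Scg2 was higher (0.77) and Nr4a2 (−1.005), Arc (−1.32), Egr1 (−0.84) and Nr4a1 (−1.13) were lower (adjusted p from 0.00034 to 0.0094). The median was −0.005 for the cAMP partners and −0.17 for the CREB targets, and 0 of 13 cGMP partners were called (2 had an unadjusted p below 0.05). In CA3 and DG 0 genes of the 3 lists were called between rTg4510 and tTA mice by limma, with 5, 2 and 3 genes in CA3 and 7, 2 and 2 in DG at an unadjusted p below 0.05 among cAMP partners, cGMP partners and CREB targets.

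Of all named genes, 17.5% in DG, 16.5% in CA1 and 9% in CA3 were called between tTA and DN mice. In DG, the cAMP partners Gnai2, an inhibitory G protein subunit (0.75), Ppp1r1b (1.22), Crtc3 (0.39) and Rapgef3 (0.97) were higher and Pkig (−0.28) was lower (adjusted p from 0.0011 to 0.031). Of these, Crtc3 was dim in both groups and Ppp1r1b was dim in DN mice. Of the CREB targets Dusp1 was higher (0.56, adjusted p = 0.013) and Penk (−3.23, adjusted p = 4.4e-07), Scg2 (−1.77, adjusted p = 1.0e-07), Bdnf (−1.26, adjusted p = 0.0049), Nptx2 (−0.66, adjusted p = 0.0021) and Per1 (−0.59, adjusted p = 0.015) were lower. In CA1, 4 cAMP partners were higher and 3 lower, 2 cGMP partners higher and 3 lower, and 1 CREB target higher and 4 lower, with the inhibitory G protein subunits Gnai1 (−0.44) and Gnao1 (−0.42) lower, Ppp1r1b higher by 2.16 and Penk lower (difference −2.11). In CA3, 5 cAMP partners were higher and 0 lower, among them Ppp1r1b (0.97, adjusted p = 0.0021), which was dim in DN mice there, and Ppp1r1a (0.57, adjusted p = 0.0093).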

How the data were processed

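The deposited values were log2 expression that the authors had made with RMA, per the submitters' processing notes, a method that corrects background, equalizes the arrays' distributions and summarizes each probe set, so that a shift of all transcripts is not visible and low differences are compressed. RNA had been amplified before labeling. Although anti-log values are mentioned in the methods, the deposited numbers span 1.944 to 13.826 (medians of the arrays 4.947 to 5.062), from which base 2 was taken. The set of arrays normalized together was not given in the sources used here.

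Of 22716 probe sets, 90 controls were left out. Of the 22626 tested, 18003 had 1 gene symbol, 287 several and 4336 were not listed and stayed unnamed, and 17977 matched the RefSeq gene table by Entrez ID, with 0 symbols changed. Genes such as Adcy1, Prkar2b and Pde4d had no listed probe set with a single symbol and were not analysed here. Within each subfield the 3 genotypes were fitted with limma 3.58.1 in R 4.3.3 (lmFit and eBayes), and pairs were compared by contrasts with Benjamini-Hochberg adjustment over all tested probe sets. Subfields of DN mice and interactions were tested in a model of 9 groups with the mouse as a random block. The mouse number in the titles pairs the arrays: over 47 pairs of arrays of 1 mouse the median correlation of deviations from the group means was 0.119, against −0.0031 for other mice, and the consensus correlation was 0.117, which the fits without a mouse kept.

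The members and lists were chosen with earlier results of these data known. Named with values were all members called in a genotype comparison or interaction, the 8 with the largest difference among those called per subfield comparison together with any named for a genotype comparison, the brightest of each family, all PKA subunits, the called partner genes (at most 8 per comparison) and other probe sets of a named member whose sign or call differed. Alternatives were other models, array weights, another quantile normalization, the study's least significant difference test on log2 and anti-log values, the Actb covariate, dropping dim probe sets and leaving out each mouse. No arrays of a group were identical (0 pairs). The fits were tested on simulated data. Precision of the genotype comparisons is set by the number of mice per group (5 or 6).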

Additional observations from a re-analysis of the deposited data

Results flagged for a closer look

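Values of the 22 named genes were screened for an animal far from the rest of its group. Of 198 combinations of gene and group 14 held one, and chance alone gives about 1 in 20. In CA1, Adcy9 was 6.485 in tTA mouse4592 (others 7.369 to 7.638), Akap2 was 6.202 in DN mouse4797 (others 6.955 to 7.387), Akap4 was 3.065 in DN mouse4883 (others 2.927 to 2.969), Pde1b was 6.765 in DN mouse4806 (others 6.388 to 6.475) and Pde4b was 8.449 in DN mouse4866 (others 7.987 to 8.158). In rTg4510 mice of the same layer, Prkaca was 7.712 in mouse4535 (others 8.545 to 8.747) and Prkacb was 7.984 in mouse4549 (others 8.43 to 8.604). In CA3, Akap12 was 5.676 in tTA mouse4570 (others 6.452 to 6.755), Pde6d was 7.524 in DN mouse4883 (others 7.227 to 7.3), Prkar2a was 4.372 in DN mouse4886 (others 5.238 to 5.534) and Pde7b was 3.784 in rTg4510 mouse4600 (others 4.359 to 4.648). In DG, rTg4510 mouse4653 had the highest Akap9 at 7.08 (others 6.767 to 6.823) and the lowest Pde2a at 6.058 (others 6.628 to 6.83), and Prkar2a was 4.233 in tTA mouse4592 (others 4.885 to 5.07).

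Genotype differences that themselves differed between subfields, by the interaction test in limma, were of 3 genes. The rTg4510 minus tTA difference was more negative in CA1 than in CA3 for Pde1a (−0.7137, adjusted p = 0.038) and more negative in CA1 than in DG for Adcy2 (−0.7023, adjusted p = 0.0055). The tTA minus DN difference was more positive in DG than in CA1 for Pde4b (0.5482, adjusted p = 0.043), and against CA3 it was more positive in DG for Pde4b (0.5787, adjusted p = 0.040) and Pde1a (0.8473, adjusted p = 0.020) and more negative for Adcy2 (−0.6531, adjusted p = 0.024).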

How the results depend on the processing

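Of 45 genotype and interaction calls, 13 were kept in every alternative and without any 1 mouse, 25 were lost without at least 1 mouse and 26 under at least 1 other alternative, and 0 changed sign. Of 25 subfield calls 19 were kept. Where a call was lost the cause was not tested. The number of mice and, for the dim genes, signal near background limit these counts.

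For rTg4510 against tTA mice in CA1, where 4 genes were called, 9 were called in the model of 9 groups with the mouse as a replicate block, 0 with only both genotypes, 2 by the least significant difference test on log2 and 2 on anti-log values, and 1 with the Actb covariate. The share of all named genes that the model of 9 groups called is not given here, so its count of 9 is not set against a background. The Actb covariate left 0 of 7 calls in tTA against DN mice in CA1, 1 of 3 in CA3 and 5 calls against 8 in DG. For rTg4510 against DN mice in CA3, with 1 call, 0 remained with the replicate block, with the least significant difference test on log2 values and with the Actb covariate. Array weights gave 18 calls against 8 between CA1 and CA3 of DN mice. For the interaction of CA1 with CA3, 0 genes were called without the replicate block and 2 with the mouse as a fixed replicate block, against 1, for that of CA1 with DG 3 without dim probe sets, against 1, and for the tTA minus DN interaction of DG with CA1 0 without the replicate block, against 1. The replicate block moved no other count of the 40 genes by over 1.5 times.

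Leaving out each mouse in turn, the counts ran from 1 to 7 for rTg4510 against tTA mice in CA1, 0 to 0 in CA3 and 0 to 1 in DG, from 6 to 14, 0 to 2 and 5 to 6 for rTg4510 against DN mice, and from 2 to 6, 1 to 4 and 6 to 9 for tTA against DN mice. They ran from 6 to 8, 7 to 9 and 7 to 9 for CA1 with CA3, CA1 with DG and CA3 with DG of DN mice, from 0 to 5, 1 to 4 and 0 to 0 for the same pairs in the rTg4510 minus tTA interaction, and from 0 to 2 and 0 to 3 for the tTA minus DN interaction of DG with CA1 and with CA3.

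Over all probe sets, calls between rTg4510 and tTA mice in CA1 numbered 2405, against 1313 with the Actb covariate and 1056 with only both genotypes. In CA3 they numbered 256, against 150 with array weights, 169 and 151 by the least significant difference test and 25 with only both genotypes, and in DG 177, against 704 with the replicate block, 323 without dim probe sets, 60 with the Actb covariate and 1 with only both genotypes. Between tTA and DN mice they numbered 3656, 2057 and 3769 in CA1, CA3 and DG, against 866, 1083 and 1265 with the Actb covariate. For rTg4510 against DN mice they numbered 705 in CA3, against 275 with the Actb covariate, 1364 with array weights and 458 and 456 by the least significant difference test, and 2005 in DG, against 1021 with the Actb covariate. Array weights gave 5107 against 2920 between CA1 and CA3 of DN mice, and the interaction of CA1 with CA3 had 878, against 526 without the replicate block.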
